A study of Drosophila melanogaster with 22 samples.

Results

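The comparison described here sets 2 arrays of Csl4-depleted Drosophila S2 cells against 6 arrays of cells depleted of the other cap subunits of the RNA exosome, 4 of Rrp4 and 2 of Rrp40. The arrays were chosen by their titles, and they make up 8 of the 22 arrays of the series. Rrp4 and Rrp40 entered with equal weight, and Rrp40 alone served as a second comparison. The 2 arrays of control cells given double-stranded RNA (dsRNA) against GFP did not enter the contrast and are given beside it as background.

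The exosome is a complex that trims and degrades RNA from its 3′ end, in the nucleus and in the cytoplasm. Its ring of RNase PH-like proteins carries a cap of RNA-binding proteins, which sits at the entry of the channel that RNA takes to the exonuclease Dis3. Csl4, Rrp4 and Rrp40 are the cap subunits, Mtr3, Rrp42, Rrp45, Rrp46 and Ski6 belong to the ring, and Rrp6, with its partner Rrp47, is a further exonuclease of the nuclear form.

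S2 cells are a line from Drosophila embryos with features of blood cells. Every group used here received dsRNA at 30 µg/ml on days 0, 1 and 3 and was harvested on day 5, and the groups differed by the target of the dsRNA: Csl4, Rrp4, Rrp40 or GFP. All were grown at 27 degrees, and 6 µg of total RNA was hybridised per one-colour Affymetrix array. The titles number the arrays of a group as biological replicates, without saying whether these were separate cultures. The p-values thus measure only the spread between arrays within groups, pooled over all 10 groups of the series. Depletion by dsRNA lowers a transcript without removing the gene, and the processed arrays carry no protein measurement. Of the blood cell markers, Hml, srp and crq were bright on all 8 arrays, and eater, Pxn, PPO1, PPO2 and PPO3 also passed the filter on dim probe sets. NimC1, lz and atilla were below that filter. Other cell types were split. The neuronal markers elav and brp and the germline markers bam and piwi passed. The muscle marker Mlc1, the neuronal marker nSyb and the germline markers vas and nanos did not. The muscle markers Mhc and Mef2 had no probe set assigned to them alone.

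The groups also differed in properties that the dsRNA target does not name. The deposited trimmed mean signal was 200.3 and 203.5 on the Csl4 arrays, 500 on each of the 4 Rrp4 arrays, and 163.7 and 172.4 on the Rrp40 arrays. Poly-A spike-in controls lay above the hybridisation controls by 1.30 and 1.06 log2 units on the Csl4 arrays, differed from them by -5.09 to -3 on the Rrp4 arrays, and lay above them by 0.232 and 0.748 on the Rrp40 arrays. The difference between 3′ and 5′ probe sets of Act5C, a measure of RNA quality, was 0.879 and 0.733 on the Csl4 arrays, 1.40 to 1.66 on the Rrp4 arrays and 0.772 and 0.864 on the Rrp40 arrays, and that of eIF4A was 0.762 and 0.607 on the Csl4 arrays, 1.17 to 1.53 on the Rrp4 arrays and 0.932 and 0.826 on the Rrp40 arrays. The difference for GAPDH went the other way, at 0.32 to 0.75 on the Rrp4 arrays. It was 0.84 and 0.83 on the Csl4 arrays and 0.92 and 0.83 on the Rrp40 arrays. The Rrp4 arrays thus stood apart in scaling, in spike-in signal and in these ratios, which did not share a direction. The part of these properties in the results was not tested, and subunit and array handling cannot be told apart for Rrp4. The Csl4 arrays differed from each other by a median of 0.343 log2 units, against 0.136 to 0.193 between Rrp4 arrays and 0.139 between the Rrp40 arrays. Because the fit pools the spread over all groups, its standard errors and p-values can understate the spread of the Csl4 arrays.

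The probe sets of the targeted genes were read first. The Csl4 probe set had a log2 signal of 10.56 and 11.26 on the Csl4 arrays, against 7.88, 7.995, 7.76 and 7.88 on the Rrp4 arrays, 7.98 and 8.03 on the Rrp40 arrays, and 8.35 and 8.14 on the GFP arrays. The signal for the targeted gene was thus higher in its own depletion than in those of the other cap subunits, by 2.97 ± 0.21 log2 units (estimate and standard error, SE, of the limma fit; adjusted p = 2.6e-07). The Rrp40 probe set behaved likewise, at 8.51 and 8.90 on the Csl4 arrays, 8.24, 8.19, 8.28 and 8.39 on the Rrp4 arrays, 11.02 and 11.22 on the Rrp40 arrays, and 9.26 and 9.29 on the GFP arrays. The Rrp4 probe set read 9.19 and 9.83 on the Csl4 arrays, 9.43, 10.81, 7.12 and 7.53 on the Rrp4 arrays, 8.88 and 8.76 on the Rrp40 arrays, and 9.44 and 9.18 on the GFP arrays. The difference for Rrp4 was 0.74 ± 0.65 (adjusted p = 0.41). Only Rrp4 replicates 3 and 4 were below both GFP arrays for their own target. Whether the probe sets of Csl4 and Rrp40 detect the added dsRNA was not tested, and the groups are named by their labels throughout.

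**Figure D1:**
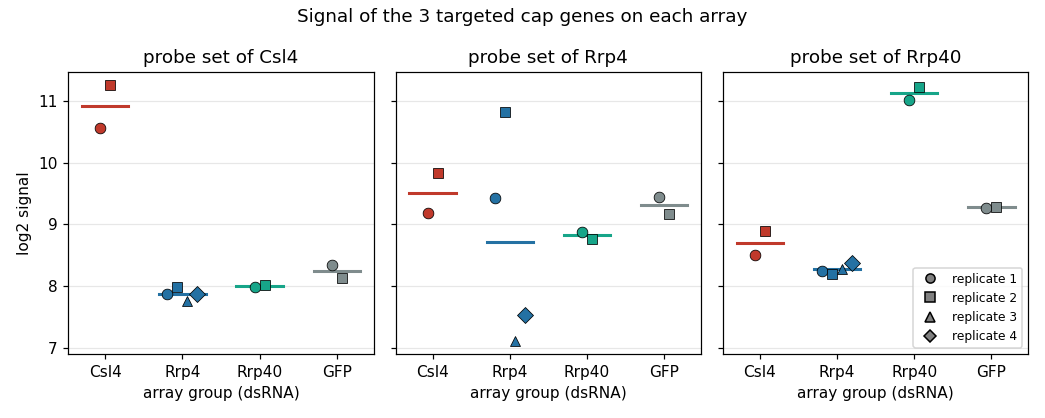
Log2 signal of the probe sets of Csl4, Rrp4 and Rrp40 (vertical axis) on the Csl4, Rrp4, Rrp40 and GFP arrays (horizontal axis); each point is 1 array, its shape gives the replicate, and the bar is the group mean. The Csl4 and Rrp40 probe sets were brightest in their own depletions, whereas the 4 Rrp4 arrays spread between 7.12 and 10.81 for Rrp4.

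In the comparison of Csl4 with Rrp4 and Rrp40, 2339 of 9385 tested probe sets (24.9%) were called at an adjusted p under 0.05 in limma, after Benjamini-Hochberg adjustment over all tested probe sets. Of these, 1141 (12.2%) were higher in Csl4 and 1198 (12.8%) were lower. Among calls of at least 2-fold the balance was uneven, with 142 higher (1.51%) and 439 lower (4.68%). Both Csl4 arrays were above all 6 others for 20.9% of the tested probe sets and below them for 18.8%, and 11.5% were called higher and 11.2% called lower without overlap. The split depended on the scaling: it was 278 higher and 1597 lower with each array centred on its median, which shifted the median of all probe sets to -0.139, and 75 higher and 4374 lower in the deposited values, where that median was -0.507.

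Most calls rested on Csl4 replicate 2. Without it, 89 probe sets were called, 36 higher and 53 lower, whereas 2820 were called without Csl4 replicate 1. Leaving out Rrp40 replicate 1 gave 1388 calls and leaving out Rrp40 replicate 2 gave 988. With 1 Csl4 array left, the spread in these fits comes from the other groups, and the array is assumed to vary like theirs. All 1141 higher and all 1198 lower probe sets were on the same side without Csl4 replicate 2, as were 85.7% of all tested; the calls used replicate 1 too, so this is a description. Their sizes differed, with a median of 0.464 log2 units in replicate 1 and 0.842 in replicate 2 for the higher probe sets, and -0.569 in replicate 1 and -1.1 in replicate 2 for the lower ones. Csl4 replicate 2 was below replicate 1 in 86.7% of the lower probe sets and in 10.3% of the higher ones, against 47.6% of all tested. The GFP arrays, which no contrast here used, split the same way in weaker form: GFP replicate 1 was below replicate 2 in 65% of the lower and 34.1% of the higher probe sets, against 50.6% of all tested. The part of this array-to-array variation in the calls was not tested.

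Against Rrp40 alone, 83 of 9385 probe sets were called (0.884%), 34 higher (0.362%) and 49 lower (0.522%), of which 22 higher (0.234%) and 40 lower (0.426%) by at least 2-fold. The differences were of similar size, with a median absolute difference of 0.353 log2 units, against 0.372 with both subunits, but the median SE was 0.253, against 0.209. At an unadjusted p under 0.05, 2501 probe sets (26.6%) passed against Rrp40 alone and 3820 (40.7%) against both subunits. Of the 1141 higher probe sets, 33 were also called against Rrp40 alone, and of the 1198 lower ones, 48. These comparisons share the Csl4 and Rrp40 arrays. Against Rrp4 alone, which shares the Csl4 arrays too, 3123 probe sets were called (33.3%), 1511 higher (16.1%) and 1612 lower (17.2%).

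**Figure D2:**
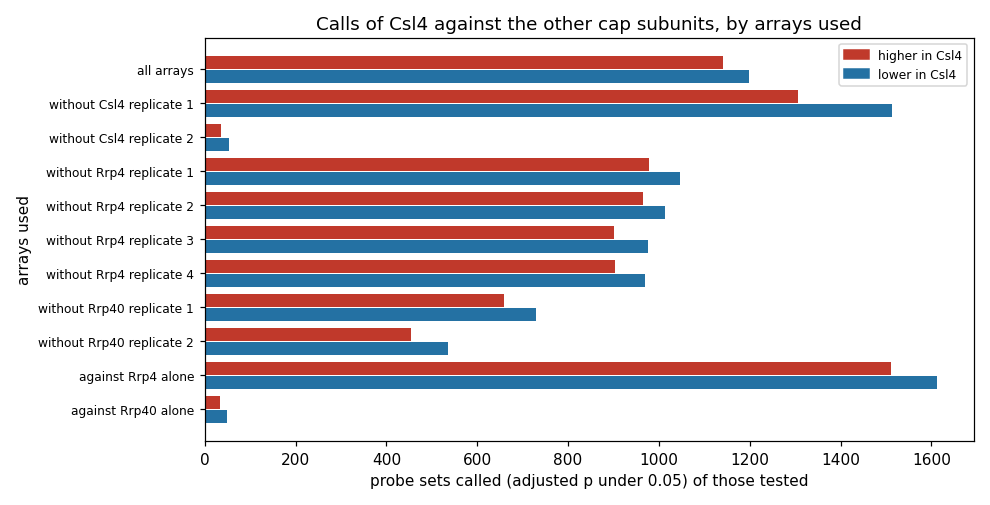
Number of probe sets called at an adjusted p under 0.05 (horizontal axis), higher or lower in Csl4, with all arrays, with 1 array left out, or against 1 subunit alone (vertical axis). The 2339 calls with all arrays fell to 89 without Csl4 replicate 2 and to 83 against Rrp40 alone.

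A small set of genes was called with both Csl4 arrays, with either Csl4 array alone, and against Rrp40 alone. It held 16 higher and 18 lower probe sets, of which 13 and 16 stood for a gene with 1 symbol as its brightest probe set. The set was put together after the values were seen, and its fits with 1 Csl4 array take the spread from the other groups, so its values are a description. It included the Csl4 and Rrp40 probe sets themselves. The 12 other higher genes and 15 other lower genes are described next.

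Among the higher genes, btn (buttonless), a homeodomain protein, had a log2 signal of 10.57 and 10.73 on the Csl4 arrays, against 7.51, 7.41, 7.41 and 7.53 on the Rrp4 arrays, 9.003 and 9.06 on the Rrp40 arrays, and 7.49 and 7.90 on the GFP arrays. Both Csl4 arrays were above all 8 others, with Rrp40 between Csl4 and Rrp4 (2.40 ± 0.12 log2 units against both subunits, limma adjusted p = 5.7e-09; 1.62 ± 0.15 against Rrp40 alone, adjusted p = 2.6e-05). SerT, the serotonin transporter, read 10.73 and 10.60 on the Csl4 arrays, 7.61, 7.49, 7.55 and 7.49 on the Rrp4 arrays, 9.62 and 9.33 on the Rrp40 arrays, and 5.46 and 5.57 on the GFP arrays. Its groups did not overlap and had the same order, Csl4 above Rrp40 above Rrp4 (2.16 ± 0.12, adjusted p = 1.3e-08; 1.19 ± 0.15 against Rrp40 alone, adjusted p = 0.00044). CG44014 had this order too, at 9.29 and 9.80 on the Csl4 arrays, 6.46, 6.57, 6.50 and 6.55 on the Rrp4 arrays, and 7.92 and 8.02 on the Rrp40 arrays (2.30 ± 0.16, adjusted p = 1.9e-07), and its other tested probe set gave 2.36.

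For a further pair of genes the mean of the Rrp40 arrays lay below that of the Rrp4 arrays. CG42675 read 6.59 and 6.61 on the Csl4 arrays, 5.00, 4.43, 4.56 and 4.75 on the Rrp4 arrays, and 4.02 and 3.41 on the Rrp40 arrays (2.40 ± 0.26, adjusted p = 6.5e-05). The glutamate transporter gene dmGlut read 6.87 and 6.77 on the Csl4 arrays, 5.39, 5.09, 5.45 and 4.70 on the Rrp4 arrays, and 3.09 and 4.94 on the Rrp40 arrays (2.23 ± 0.38, adjusted p = 0.0022). The Rrp40 arrays of dmGlut lay far apart, and the difference against Rrp40 alone was 2.80 ± 0.45.

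The other 7 higher genes differed by 0.90 to 1.76 log2 units. CG2604 was highest among them, at 9.80 and 10.30 on the Csl4 arrays, against 8.02 to 8.26 on the Rrp4 arrays and 8.51 and 8.40 on the Rrp40 arrays. IM33, a peptide gene first described as immune-induced, read 8.23 and 8.71 on the Csl4 arrays, against 6.58 to 6.75 on the Rrp4 arrays and 7.32 and 7.10 on the Rrp40 arrays. GILT3, of a family of lysosomal thiol reductases, read 7.74 and 7.98 on the Csl4 arrays, against 6.07 to 6.41 on the Rrp4 arrays and 6.07 and 6.52 on the Rrp40 arrays. Reg-2 (1.64 ± 0.23), the cytochrome P450 gene Cyp12c1 (1.10 ± 0.15), Oxp (0.90 ± 0.14) and CG32095 (0.90 ± 0.13) completed the group, each with both Csl4 arrays above all 6 others. Among all 9 depletions, Csl4 had the highest mean for GILT3 and CG32095 only of these 12 genes. For btn, CG42675, CG44014, dmGlut, SerT, Reg-2, Cyp12c1 and Oxp, both ring subunits Mtr3 and Ski6 had higher means, as in btn with 11.05 in Mtr3 and 11.29 in Ski6, against 10.65 in Csl4.

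The lower genes held the largest differences. Mf encodes myofilin, a protein of muscle thick filaments. It read 2.13 and 2.34 on the Csl4 arrays, against 6.93, 6.41, 6.57 and 6.31 on the Rrp4 arrays, 6.10 and 5.79 on the Rrp40 arrays, and 6.41 and 6.69 on the GFP arrays. Csl4 stood alone below all of them (-4.02 ± 0.46, limma adjusted p = 1e-04; -3.71 ± 0.56 against Rrp40 alone, adjusted p = 0.0032). The Mf values on the Csl4 arrays were near the lowest value possible here, 1.69, so the size of this difference is uncertain. Ccn, a secreted matricellular protein, was at 1.69 and 1.80 on the Csl4 arrays, the first of which is the floor set on low signals, against 5.78, 5.96, 6.19 and 6.20 on the Rrp4 arrays, 5.40 and 5.498 on the Rrp40 arrays, and 6.13 and 6.76 on the GFP arrays. The difference of -3.998 ± 0.55 (adjusted p = 0.00042) therefore depends on that floor. Of the 15 lower genes, the Csl4 mean was the lowest of the 9 depletions for 7: Mf, Ccn, brp, sage, CG8925, ppk29 and Galphaq. For some of them another depletion came close. The Galphaq mean was 7.59 in Csl4 and 7.63 in Dis3. In Csl4 and Rrp47 the means were 4.71 and 4.92 for brp, 4.13 and 4.49 for sage, and 1.74 and 2.75 for Ccn. The next lowest mean was further off for Mf (2.24 in Csl4, 3.81 in Mtr3), ppk29 (4.18 in Csl4, 5.57 in Dis3) and CG8925 (2.77 in Csl4, 4.83 in Rrp47).

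The synaptic active-zone gene brp (bruchpilot) read 5.97 and 3.46 on the Csl4 arrays, against 8.29, 8.22, 8.35 and 8.72 on the Rrp4 arrays, 7.94 and 7.75 on the Rrp40 arrays, and 7.04 and 8.21 on the GFP arrays. The groups did not overlap, but the Csl4 arrays were far apart, and the difference of -3.41 ± 0.51 was -2.15 without Csl4 replicate 2, just within the threshold (adjusted p = 0.05 after rounding). Hml encodes hemolectin, a clotting protein of plasmatocytes and one of the brightest genes in the set. It read 10.79 and 10.19 on the Csl4 arrays, against 13.30, 13.21, 13.37 and 13.31 on the Rrp4 arrays, 12.75 and 12.68 on the Rrp40 arrays, and 12.09 and 13.14 on the GFP arrays (-2.52 ± 0.35, adjusted p = 0.00042; -2.23 ± 0.42 against Rrp40 alone, adjusted p = 0.019). Both Csl4 arrays were below all 8 of these other arrays. The Hml mean was 10.49 in Csl4, 8.28 in Dis3, 9.74 in Rrp47, 10.53 in Mtr3 and 10.64 in Ski6. It was 11.39 in Rrp6 and 12.34 in Rrp46, so the low signal was not particular to Csl4.

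The basic helix-loop-helix factor gene sage read 4.14 and 4.11 on the Csl4 arrays, against 5.91 to 6.23 on the Rrp4 arrays and 6.71 and 6.89 on the Rrp40 arrays (-2.32 ± 0.31). The RNA-binding sex determination gene Sxl read 7.64 and 7.96 on the Csl4 arrays, against 9.13 to 9.66 on the Rrp4 arrays, 9.33 and 9.14 on the Rrp40 arrays, and 8.71 and 8.46 on the GFP arrays (-1.51 ± 0.24, adjusted p = 0.0013). Sxl was below the GFP arrays in Csl4 and above them in Rrp4 and Rrp40. The paired-box gene gsb (gooseberry) read 6.23 and 6.68 on the Csl4 arrays, against 7.84 to 8.12 on the Rrp4 arrays, 7.83 and 7.61 on the Rrp40 arrays, and 9.51 and 10.12 on the GFP arrays, so all 3 cap groups were below GFP and Csl4 was furthest.

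The noncoding αγ-element RNA, lncRNA:alphagamma-element:CR32865, read 10.95 and 10.68 on the Csl4 arrays, against 12.36, 12.30, 12.62 and 12.40 on the Rrp4 arrays, 12.19 and 12.11 on the Rrp40 arrays, and 11.71 and 10.85 on the GFP arrays. It was lower by 1.47 ± 0.17 log2 units in Csl4 (limma adjusted p = 0.00011), with no overlap with the other cap arrays, and it overlapped the GFP arrays. Cross-hybridisation of its probe set was not tested. The other lower genes were the sodium channel subunit genes ppk28 (-1.42 ± 0.22) and ppk29 (-1.64 ± 0.28), the transporter gene MFS3 (-1.37 ± 0.19), the G protein subunit gene Galphaq (-1.30 ± 0.20), the laminin subunit gene wb (-1.24 ± 0.18), CG45263 (-1.59 ± 0.17) and the dim CG8925 (-2.38 ± 0.45).

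**Figure D3:**
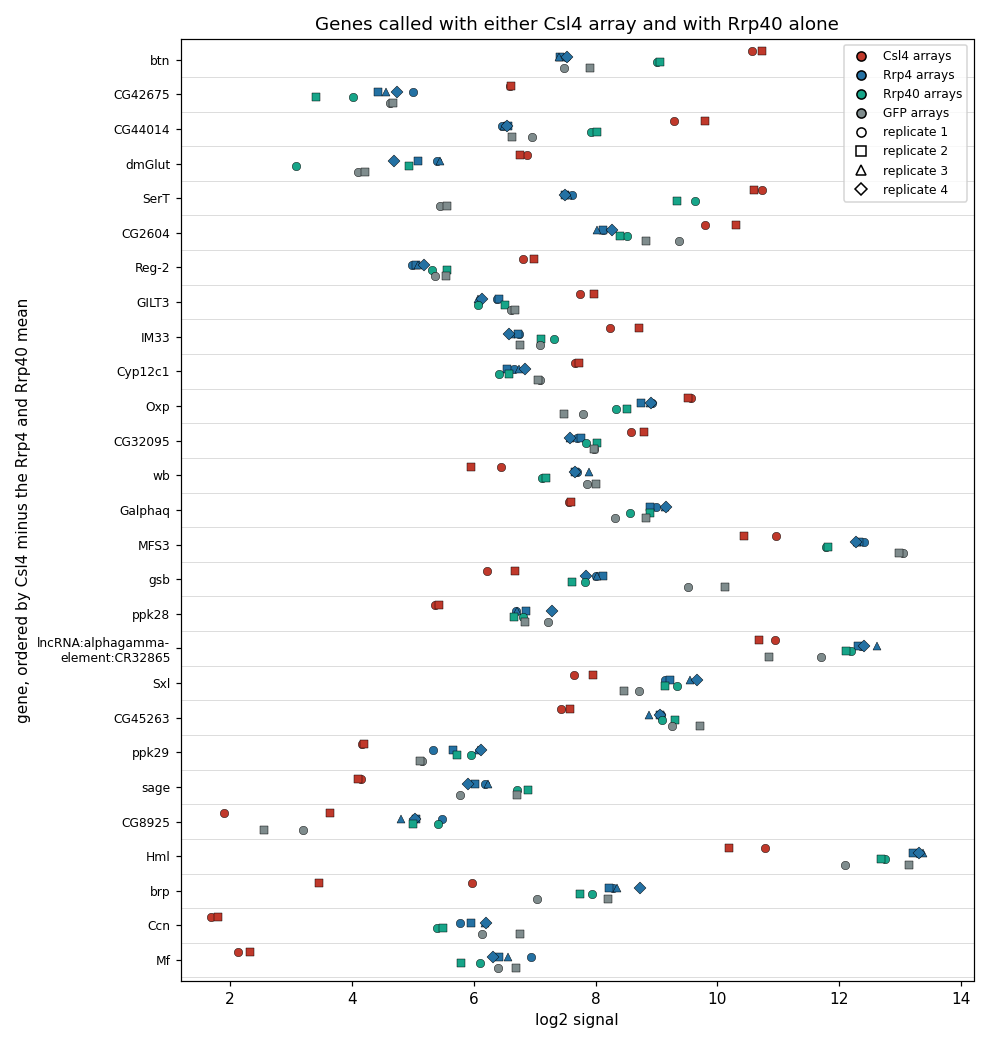
Log2 signal (horizontal axis) of the 27 genes, Csl4 and Rrp40 aside, that were called with both Csl4 arrays, with either alone and against Rrp40 alone (vertical axis, highest difference at the top); each point is 1 array, coloured by group and shaped by replicate. Csl4 arrays lie right of all Rrp4 and Rrp40 arrays for the upper 12 genes and left of them for the lower 15.

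The 12 highest and 12 lowest genes by fold change included others that did not meet all of these conditions. Higher in Csl4 by 2.18 to 2.76 log2 units were CG7299, CG1213, CG40160, thw, Nazo, which encodes an antiviral factor, and the pair-rule gene eve. None of these 6 was called against Rrp40 alone or without Csl4 replicate 2. Nazo read 9.01 and 9.04 on the Csl4 arrays, against 5.23, 6.03, 5.82 and 5.76 on the Rrp4 arrays, 7.18 and 6.90 on the Rrp40 arrays, and 2.84 and 6.55 on the GFP arrays (2.65 ± 0.56, adjusted p = 0.007). The lower ones were CG1722 (-3.58 ± 0.64), the synaptic matrix gene mtg (-3.14 ± 0.52), the axon guidance ligand gene sli (-2.999 ± 1.02), Rcd6 (-2.72 ± 0.46), the sulfotransferase gene St3 (-2.65 ± 0.60), CG30340 (-2.56 ± 0.42), dikar (-2.52 ± 0.56) and the chloride channel gene tty (-2.48 ± 0.55). Of these 8, CG1722, mtg, Rcd6 and CG30340 were also called against Rrp40 alone, and none was called without Csl4 replicate 2. The values of sli were the least even: it read 5.83 and 1.69, the floor, on the Csl4 arrays, against 6.18 to 6.97 on the Rrp4 arrays and 6.67 and 6.96 on the Rrp40 arrays, and without Csl4 replicate 2 its difference was -0.93 (adjusted p = 0.7).

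Among probe sets with a mean log2 signal of at least 9.47, the largest higher call was CG18557. It read 11.60 and 11.83 on the Csl4 arrays, against 8.30, 8.62, 8.49 and 8.61 on the Rrp4 arrays, 11.27 and 11.24 on the Rrp40 arrays, and 6.03 and 5.29 on the GFP arrays. Its difference of 1.84 ± 0.22 (adjusted p = 0.00015) came mainly from Rrp4, since against Rrp40 alone it was 0.46 ± 0.27 (adjusted p = 0.27). Debcl, a Bcl-2 family gene, read 10.49 and 10.59 on the Csl4 arrays, against 8.92 to 9.17 on the Rrp4 arrays and 9.94 and 9.87 on the Rrp40 arrays (1.07 ± 0.15, adjusted p = 0.00042), and it was called without Csl4 replicate 2 (adjusted p = 0.018). CG13369 (1.24 ± 0.25), the basement membrane gene Glt (1.14 ± 0.28), the mitochondrial ribosomal protein gene mRpL49 (1.07 ± 0.24) and grsm (1.03 ± 0.23) were the next highest, and none of these 6 bright genes was called against Rrp40 alone.

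The bright lower calls, apart from Hml, showed the gap between the Csl4 arrays most plainly. The immunoglobulin receptor gene Dscam1 read 11.05 and 9.25 on the Csl4 arrays, against 11.68 to 12.09 on the Rrp4 arrays, 11.87 and 11.81 on the Rrp40 arrays, and 10.11 and 11.41 on the GFP arrays (-1.71 ± 0.54, adjusted p = 0.032). The atypical cadherin gene kug read 9.14 and 8.05 on the Csl4 arrays, against 10.33 to 10.36 on the Rrp4 arrays, 10.32 and 10.34 on the Rrp40 arrays, and 7.94 and 9.03 on the GFP arrays (-1.74 ± 0.47, adjusted p = 0.019). In both genes the Rrp4 and Rrp40 arrays were close together, the Csl4 and GFP arrays were each more than 1 log2 unit apart, and the GFP arrays reached below Csl4 replicate 1. DIP1 (-2.06 ± 0.62), lncRNA:CR42862 (-1.66 ± 0.54) and the Z-disc gene Zasp52 (-1.58 ± 0.45) showed the same gap between the Csl4 arrays, and of the 6 bright lower genes only Hml was called against Rrp40 alone or without Csl4 replicate 2.

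Gene lists were read against the 7222 genes tested with 1 symbol each. Of these, 974 were higher, 883 were lower and 25.7% were called, with a median difference of 0.051 log2 units. At an unadjusted p under 0.05 in limma, 1613 were higher and 1415 lower, and against Rrp40 alone 1085 were higher and 890 lower. In Csl4 replicate 1, 3867 were above the mean of the other cap subunits and 3355 below. In replicate 2 these counts were 3967 and 3255. Genes of the mitochondrial ribosome, which translates the proteins encoded by mitochondrial DNA, were mostly higher: of 71 tested, 37 were called higher and 1 lower (53.5% called), with a median of 0.51. The highest was mRpL2, which read 9.25 and 10.02 on the Csl4 arrays, against 8.40, 8.37, 8.44 and 8.41 on the Rrp4 arrays and 8.43 and 8.34 on the Rrp40 arrays (1.24 ± 0.30, adjusted p = 0.012). The 1 lower member was mRpS5, at 10.64 and 10.13 on the Csl4 arrays, against 10.79 to 11.01 on the Rrp4 arrays and 10.86 and 10.93 on the Rrp40 arrays (-0.52 ± 0.17, adjusted p = 0.032). The direction was shared by both Csl4 arrays, with 61 of 71 members above the mean of the other subunits in replicate 1 (median 0.34) and 68 of 71 in replicate 2 (median 0.77). The calls were not: limma called none without Csl4 replicate 2 and none against Rrp40 alone. Against Rrp40 alone, 34 of the 71 were higher and 1 lower at an unadjusted p under 0.05 in limma, and the median was 0.46. The mean of the GFP arrays also lay above the other cap subunits for this list, by a median of 0.23.

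Genes of oxidative phosphorylation, the respiratory chain complexes and ATP synthase, had 31 of 60 members higher and none lower (51.7% called; median 0.38). Among complex I subunits, ND-B17 read 10.53 and 11.04 on the Csl4 arrays, against 9.92, 9.86, 9.85 and 9.68 on the Rrp4 arrays and 9.84 and 9.92 on the Rrp40 arrays (0.93 ± 0.19, adjusted p = 0.0061). COX4L had the largest value and was the only member called against Rrp40 alone, but its Rrp40 arrays read 3.33 and 1.69, the second at the floor, beside 5.54 and 5.04 on the Csl4 arrays and 4.73 to 5.19 on the Rrp4 arrays. Csl4 replicates 1 and 2 were above the other subunits for 53 and 52 of the 60 members, with medians of 0.31 and 0.45. Of all 7222 genes, 3867 and 3967 were above. No member was called by limma without replicate 2. In the deposited values, where all genes shifted downwards, the median of mitochondrial ribosomal genes was -0.048 and that of oxidative phosphorylation genes -0.060. Relative to all genes both lists stayed above in all 28 alternative settings. These settings draw on the same Csl4 arrays, and several leave the group means unchanged, so this is a description.

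Genes of DNA replication had 9 of 32 members higher and none lower (28.1% called, near the 25.7% of all genes; median 0.39). Among them were the origin recognition subunit Orc5 (0.95 ± 0.28), the licensing factor Cdc6 (0.93 ± 0.31), the GINS subunit Psf1 (0.88 ± 0.21) and the helicase subunit Mcm3. Here GFP lay on the other side: the list's GFP mean was below the other cap subunits (median difference -0.60), whereas the Csl4 medians were 0.28 in replicate 1 and 0.52 in replicate 2. Proteasome subunits had 9 of 30 members higher and none lower (30% called; median 0.17), among them Rpt2, which read 10.12 and 10.55 on the Csl4 arrays, against 9.54 to 9.64 on the Rrp4 arrays and 9.70 and 9.61 on the Rrp40 arrays. The regulatory particle subunits Rpn7, Rpn12, Rpt3 and Rpt4 and the core subunits Prosalpha3, Prosalpha4 and Prosbeta5 were higher by 0.43 to 0.68, and Rpt3R by 1.09. No member of either list was called by limma against Rrp40 alone or without Csl4 replicate 2. Against Rrp40 alone, 8 replication genes were higher and 1 lower at an unadjusted p under 0.05 in limma. Of the proteasome genes, 10 were higher and 0 lower at that level, and of all 7222 genes 1085 were higher and 890 lower.

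**Figure D4:**
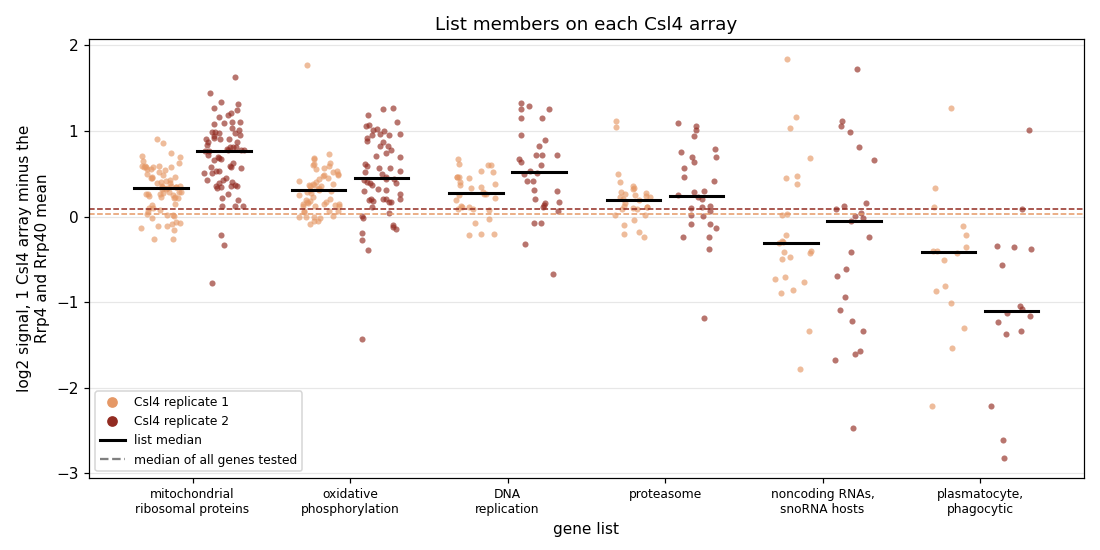
Difference in log2 signal between 1 Csl4 array and the mean of Rrp4 and Rrp40 (vertical axis) for the members of 6 gene lists (horizontal axis); points are genes, pale for Csl4 replicate 1 and dark for replicate 2, bars are list medians and dashed lines the medians of all genes tested. The medians of mitochondrial ribosomal proteins were 0.34 and 0.77, and those of the plasmatocyte and phagocytic list -0.42 and -1.10.

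Plasmatocytes are the phagocytic blood cells that S2 cells resemble, and the list of their lineage and receptor genes had a median of -0.82 in Csl4. Of 16 tested, 6 were called lower, 1 was called higher and 9 did not pass (43.8% called). Beside Hml and Dscam1 the lower members were the integrin subunit gene Itgbn, the ferritin gene Fer2LCH, the GATA factor gene srp and the apoptotic-cell receptor gene crq, and the higher one was Glt. Itgbn read 4.08 and 3.39 on the Csl4 arrays, against 4.98, 5.88, 5.59 and 5.57 on the Rrp4 arrays and 5.43 and 5.98 on the Rrp40 arrays (-1.87, adjusted p = 0.0032), and with Hml it was called against Rrp40 alone. The receptor gene eater read 7.40 and 7.19 on the Csl4 arrays, against 8.01 to 8.35 on the Rrp4 arrays and 8.22 and 8.50 on the Rrp40 arrays, and did not pass the test. Members below the other cap subunits numbered 13 of 16 in Csl4 replicate 1 (median -0.42) and 14 of 16 in replicate 2 (median -1.10), and without replicate 2 only Hml was called. Of all 7222 genes, 3355 were below the other cap subunits in replicate 1 and 3255 in replicate 2. The log2 of the summed signal of the list was 14.93 and 14.35 on the Csl4 arrays and 15.29 to 15.42 on the Rrp4 arrays. It was 15.27 on both Rrp40 arrays, and 14.82 and 15.31 on the GFP arrays. Bright members such as Hml weigh most in this sum. In bulk RNA, fewer cells with a transcript and less transcript per cell cannot be told apart.

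Markers of other cell types were split. Of 7 muscle genes tested, Mf and Zasp52 were lower and the mesoderm factor gene twi was higher (1.24, adjusted p = 0.0049). Of 5 neuronal and glial genes, brp and the monoamine transporter gene Vmat were lower, while SerT and elav were higher. The share called was 42.9% of the muscle genes and 80% of the neuronal and glial genes, against 25.7% of all genes. Both lists are short, and only Mf, brp and SerT of these were called against Rrp40 alone. The log2 of the summed signal of the muscle genes was 11.01 and 10.42 on the Csl4 arrays, 11.07 to 11.28 on the Rrp4 arrays and 11.30 and 11.28 on the Rrp40 arrays. That of the neuronal genes was 11.73 and 11.25 on the Csl4 arrays, 10.80 to 10.89 on the Rrp4 arrays and 11.45 and 11.37 on the Rrp40 arrays. The median difference was 0.38 for the muscle genes, whose sum was lower in Csl4. For the neuronal and glial genes it was -0.44, though their sum was above the Rrp4 arrays. Their medians were 0.13 in Csl4 replicate 1 and -1.02 in replicate 2. The crystal cell and lamellocyte list had no call in limma among 8 genes, of which 1 was higher and 1 lower at an unadjusted p under 0.05. Of all 7222 genes, 1613 were higher and 1415 lower at that level. The part of other cell types in these results was not tested.

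Of 25 noncoding RNAs and snoRNA host transcripts that passed the filter, out of 3026 listed, 8 were lower and 1 was higher in Csl4 (36% called; median -0.26). Beside the αγ-element RNA and lncRNA:CR42862, the lower ones were asRNA:CR43964, lncRNA:CR43461, asRNA:CR43944, lncRNA:CR42549, lncRNA:CR32027 and Uhg4, a host of small nucleolar RNAs. The antisense transcript asRNA:CR43944 read 8.14 and 7.28 on the Csl4 arrays, against 8.86 to 8.98 on the Rrp4 arrays and 8.82 and 8.76 on the Rrp40 arrays (-1.14, adjusted p = 0.0074). Uhg4 read 9.22 and 8.77 on the Csl4 arrays, against 9.58, 9.86, 10.43 and 10.71 on the Rrp4 arrays and 9.79 and 9.86 on the Rrp40 arrays. The higher transcript was asRNA:CR31084 (1.08). Only the αγ-element RNA was called against Rrp40 alone or without Csl4 replicate 2. List medians on the separate Csl4 arrays were -0.31 in replicate 1 and -0.047 in replicate 2. The log2 of the summed signal was 13.14 in replicate 1 and 12.78 in replicate 2, so these measures order the arrays differently.

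Among 18 splicing regulators, 3 were higher and 4 lower (38.9% called; median -0.18). The lower ones were Sxl, the sex-specific splicing regulator gene tra, and the hnRNP genes glo (-1.12) and Hrb87F (-1.06), and SC35 and U2af50 were among the higher ones. Except for Sxl, none was called against Rrp40 alone or without Csl4 replicate 2.

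Detoxification genes split by member. Of 42 cytochrome P450 genes, 2 were higher and 7 lower (21.4% called). The lower ones were Cyp4d14 (-1.78), Cyp28d2 (-1.37), Cyp6a17, Cyp6a9, Cyp6a23, Cyp6a20 and Cyp4e2. Cyp6a17 read 8.71 and 8.24 on the Csl4 arrays, against 10.05 to 10.26 on the Rrp4 arrays, 9.502 and 9.504 on the Rrp40 arrays, and 9.76 and 10.43 on the GFP arrays (-1.36, adjusted p = 0.0046). Cyp6a9 and Cyp12c1 were called without Csl4 replicate 2. Genes of the Cyp6a group are similar in sequence, and cross-hybridisation was not tested. The higher ones were Cyp4c3 (1.92) and Cyp12c1. Of 29 glutathione S-transferases, 5 were higher and 3 lower (27.6% called, near the 25.7% of all genes). Limma called none of them without Csl4 replicate 2, where their median difference was -0.052. The highest called was GstO3 (1.11) and the lowest called were GstT2 (-0.82) and GstD7 (-0.74). GstE13, GstO1 and GstT3 were higher against Rrp40 alone as well. GstE13 read 10.01 and 10.41 on the Csl4 arrays, against 9.24, 9.30, 9.42 and 9.40 on the Rrp4 arrays, 9.36 and 9.12 on the Rrp40 arrays, and 9.54 and 9.30 on the GFP arrays (0.92, adjusted p = 0.0037; 0.97 against Rrp40 alone, adjusted p = 0.034). Both Csl4 arrays were above all 8 others for GstE13.

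Of 11 subunit genes, counting Rrp47, Csl4 and Rrp45 were higher and Rrp40 was lower (27.3% called, near the 25.7% of all genes, with a median of 0.58). The counts and the median include Csl4, Rrp4 and Rrp40, the dsRNA targets of the compared arrays. Above the other cap subunits were 8 of 11 in Csl4 replicate 1 and 9 of 11 in replicate 2. Of all 7222 genes, 3867 and 3967 were above. The ring subunit gene Rrp45 read 8.78 and 8.67 on the Csl4 arrays, against 7.85, 8.06, 7.82 and 7.54 on the Rrp4 arrays, 8.29 and 8.25 on the Rrp40 arrays, and 7.93 and 8.31 on the GFP arrays (0.68 ± 0.16, adjusted p = 0.012), and it was not called against Rrp40 alone (0.45 ± 0.20, adjusted p = 0.16). The other ring subunits gave 0.63 ± 0.26 for Ski6, 0.62 ± 0.40 for Mtr3, 0.58 ± 0.27 for Rrp42 and 0.31 ± 0.20 for Rrp46, none of which passed. Rrp6 (0.30 ± 0.23), Dis3 (0.038 ± 0.26) and Rrp47 (-0.065 ± 0.19) did not pass either. For Rrp40, the lower value against both subunits came from the Rrp40 arrays themselves: against Rrp4 alone its signal was 0.43 ± 0.20 higher in Csl4 (adjusted p = 0.11).

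Of 8 genes listed here as exosome cofactors, pelo, which rescues stalled ribosomes, and Isha were lower and none was higher (25% called). Neither was called without Csl4 replicate 2 (adjusted p = 0.2 for pelo and 0.53 for Isha) or against Rrp40 alone, and the difference of Isha, -0.98 with all arrays, was -0.41 without that replicate. pelo read 9.19 and 9.11 on the Csl4 arrays, against 10.27, 10.07, 10.04 and 9.89 on the Rrp4 arrays, 9.37 and 9.20 on the Rrp40 arrays, and 10.04 and 9.98 on the GFP arrays (-0.53 ± 0.12, adjusted p = 0.011). All Csl4 and Rrp40 arrays were below all Rrp4 and GFP arrays, and the difference against Rrp40 alone was -0.14 ± 0.15 (adjusted p = 0.57). The nuclear RNA helicase Mtr4 read 9.25 and 9.28 on the Csl4 arrays, against 8.87 to 9.22 on the Rrp4 arrays and 8.88 and 8.97 on the Rrp40 arrays, and did not pass (0.30 ± 0.14, adjusted p = 0.11). The listed genes HBS1 (0.20), tst (0.51), CG8777 (0.41), CG11454 (0.20) and Trf4-1 (-0.38) did not pass.

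Other mRNA decay factors were called at about the rate of all genes. Of 12 deadenylase genes, Not10 was higher and Cnot4 and Not3 were lower (25% called). Of 13 genes of decapping, 5′ to 3′ decay and nonsense-mediated decay, LSm7 was higher and the decapping activator gene Patr-1 and the endonuclease gene Smg6 were lower (23.1% called). None of these was called against Rrp40 alone or without Csl4 replicate 2. Of 38 lists in all, 28 had no member called against Rrp40 alone.

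Rrp4 and Rrp40 differed from each other too. Between them 507 probe sets were called (5.4%), 290 higher in Rrp4 (3.09%) and 217 lower (2.31%). Pepck2, a phosphoenolpyruvate carboxykinase, read 8.08, 8.41, 8.19 and 8.32 on the Rrp4 arrays, against 4.59 and 5.30 on the Rrp40 arrays, with 5.28 and 5.58 on the Csl4 arrays (Rrp4 minus Rrp40 3.31 ± 0.44, adjusted p = 0.00044). The neuropeptide gene CNMa (2.39 ± 0.56) had the same order, and COX4L was the other gene furthest on this side. On the opposite side were Rrp40 itself, CG18557 (-2.75 ± 0.23) and CG43336 (-2.73 ± 0.65). For CG43336 the Csl4 arrays read 7.55 and 9.05, between the Rrp4 arrays (6.23 to 6.75) and the Rrp40 arrays (9.14 and 9.17).

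Among the 1141 higher probe sets, the GFP mean was nearer to Csl4 than to the other cap subunits in 519 (45.5%), and among the 1198 lower ones in 468 (39.1%), against 47.7% of all tested. Csl4 was the highest of the 9 depletions for 256 (22.4%) of the higher probe sets, against 8.30% of all tested, and the lowest for 368 (30.7%) of the lower ones, against 8.47% of all tested. These shares use the arrays that made the calls and are a description.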

How the data were processed

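Linear intensity values per probe set, made with GCOS per the submitters' processing notes, are what the authors deposited for the 22 arrays. Here the arrays were quantile normalized together, signals under the 10th percentile (3.216) were raised to it, and log2 was taken. The 183 controls among 18952 probe sets were dropped, and dim probe sets (mean log2 below the median, 4.67) were not tested, which left 9385. Group means of 10 groups were fitted to 22 arrays with limma 3.58.1 in R 4.3.3 (eBayes with an intensity trend, 12 residual degrees of freedom), two-sided, with Benjamini-Hochberg adjustment over all tested probe sets. Of the tested probe sets, 7825 carried 1 symbol (7222 genes, each read by its brightest probe set), 253 several and 1307 none. The arrays, the 38 gene lists and the rules were chosen with earlier results of these data known. Named by rule were the 12 highest and 12 lowest calls whose Csl4 arrays did not overlap the other 6, the 6 highest and 6 lowest of them with a mean log2 signal of at least 9.47, the exosome genes, the 2 highest and 2 lowest called members of described lists, and the 3 furthest each way between Rrp4 and Rrp40; all other genes were named after their values were seen. On simulated data for Csl4 against Rrp4 and Rrp40 (9385 probe sets), 46 of 50 raised 4-fold, 43 of 50 lowered 4-fold, 31 of 50 raised 2-fold and 29 of 50 lowered 2-fold were recovered. The number of arrays limits the precision.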

Additional observations from a re-analysis of the deposited data

Results flagged for a closer look

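Of 57 named genes, 1 had an Rrp4 array far from the other 3 by Dixon's criterion, which chance meets in about 1 of 20 groups. Trf4-1, a noncanonical poly(A) polymerase gene, read 4.12 on Rrp4 array 2, against 5.41 to 5.51 on the others. Its difference between Csl4 and the other cap subunits was -0.38 and did not pass the test.

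Control probe sets for 18S ribosomal RNA, which no comparison used, averaged 11.22 log2 units over the Csl4 arrays (12.35 and 10.1), against 6.69 to 8.61 on the Rrp4 arrays, 7.13 and 8.27 on the Rrp40 arrays, and 7.97 and 9.9 on the GFP arrays. Both Csl4 arrays were above both GFP arrays. The signal was not particular to Csl4, since the group means were 13.62 in Dis3, 13.57 in Ski6, 13.35 in Rrp6 and 12.85 in Mtr3. Of the Csl4 arrays, replicate 1 had the higher signal, and both were above all Rrp4 and Rrp40 arrays. The part of this signal in the calls was not tested.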

How the results depend on the processing

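Counts of calls depended strongly on the processing, and the causes were not tested. For Csl4 against Rrp4 and Rrp40 (2339 calls), the count was 4449 in the deposited values, 1489 with no filter on dim probe sets, 1196 with Rrp4 replicates 1 and 2 only, 829 without Csl4 2, Dis3 2 and Rrp6 2, 4066 without Csl4 1, Dis3 1 and Rrp6 1, 83 with Rrp40 alone, and 89 to 2820 leaving out 1 array, with both extremes from a Csl4 array. For Csl4 against Rrp40 (83 calls), it was 1695 in the deposited values, 46 with median centring, 39 with no filter, 1410 with only the 8 cap arrays fitted, 38 and 41 with Rrp4 1 and 2 or 3 and 4 only, 3320 without Csl4 1, Dis3 1 and Rrp6 1, 241 with array weights, and 23 to 1325 leaving out 1 array. For Rrp4 against Rrp40 (507 calls), it was 8865 in the deposited values, 310 with median centring, 783 with 8 arrays, 312 and 270 with Rrp4 1 and 2 or 3 and 4 only, 1378 and 1379 without the arrays numbered 2 or 1 of Csl4, Dis3 and Rrp6, 2090 with array weights, and 81 to 524 leaving out 1 array.

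With the replicate number as a block the counts were 1006 for Csl4 against Rrp4 and Rrp40, 27 for Csl4 against Rrp40 and 271 for Rrp4 against Rrp40. Same-numbered arrays of the cap groups did not deviate together (r of -0.047 to 0.059 over 5 pairs), so within the comparison the numbers were not taken as pairs. Outside it, Csl4 2 deviated with Dis3 2 (r = 0.401) and Rrp6 2 (r = 0.306), which bear its number, and with GFP 1 (r = 0.178), which does not. In a group of 2 arrays the deviations are equal and opposite, so Csl4 1 has the same r with Dis3 1 and Rrp6 1. These values therefore cannot single out the arrays numbered 2, and whether any of these arrays share a batch was not tested.

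The Rrp4 signal was 1.44 higher in Csl4, and passed the test, with Rrp4 3 and 4 only. Of 1508 values of 54 named genes under these alternatives, 1327 kept direction and call, 123 lost the call, 25 gained it and 33 changed sign. Those that changed sign in the deposited values were CG43336 (-0.068), HBS1 (-0.37), tst (-0.089), CG8777 (-0.22), Rrp42 (-0.014), CG11454 (-0.37), Mtr3 (-0.0024), Rrp6 (-0.32), Mtr4 (-0.27), Dis3 (-0.54) and Rrp46 (-0.28). With median centring they were HBS1 (-0.0012), CG11454 (-0.0003) and Dis3 (-0.18). With Rrp40 alone they were Pepck2 (0.49), CNMa (0.16), CG43336 (-0.86), CG11454 (-0.029) and Rrp47 (0.13), and with Rrp4 alone Rrp40 (0.43), Trf4-1 (0.054) and Dis3 (-0.078). Without Csl4 2, with or without Dis3 2 and Rrp6 2, they were CG43336 (-0.24), Trf4-1 (0.34) and Dis3 (-0.23). Leaving out 1 array, the range was -0.24 to 1.26 for CG43336, -1.10 to 0.34 for Trf4-1 and -0.23 to 0.30 for Dis3. Dis3, whose difference was near 0, also gave -0.023 with trimmed mean scaling, -0.066 with Rrp4 1 and 2 only, -0.07 with the block, -0.0032 without Rrp4 4, -0.078 without Rrp40 1 and -0.0008 with 6 arrays weighted equally. Counting list members under every alternative was chosen after seeing the data. The median of glutathione S-transferases relative to all genes (-0.037) changed sign to 0.033 in the deposited values and with median centring and to 0.032 with trimmed mean scaling, and ran over -0.088 to 0.0023 leaving out 1 array.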

Other observations

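Of 21 serine proteases and serpins tested, 5 were higher in Csl4 and 1 was lower (28.6% called, near the 25.7% of all genes). None was called against Rrp40 alone, where 4 were higher and 1 lower at an unadjusted p under 0.05 in limma. Of all 7222 genes, 1085 were higher and 890 lower at that level. The protease gene grass, of the Toll pathway, read 10.04 and 10.48 on the Csl4 arrays, against 8.47 to 8.71 on the Rrp4 arrays, 9.49 and 9.19 on the Rrp40 arrays, and 8.28 and 8.05 on the GFP arrays (1.31 ± 0.18, limma adjusted p = 0.00042). It was called without Csl4 replicate 2 (adjusted p = 0.028), and against Rrp40 alone it missed the threshold (adjusted p = 0.054). Drs, an antifungal peptide gene, read 12.24 and 12.31 on the Csl4 arrays, against 11.31, 10.22, 11.40 and 10.26 on the Rrp4 arrays, 12.02 and 11.95 on the Rrp40 arrays, and 10.05 and 10.03 on the GFP arrays (0.89 ± 0.26, adjusted p = 0.024). It was the 1 call among 6 antimicrobial peptide genes and was not called without Csl4 replicate 2 (adjusted p = 0.29) or against Rrp40 alone (adjusted p = 0.56).

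Of 17 genes of endoplasmic reticulum stress, 2 were higher and 4 lower (35.3% called). The lower ones included all 3 sensors of the unfolded protein response, Atf6 (-0.93), Ire1 (-0.92) and PEK (-0.72). No gene of the list was called by limma against Rrp40 alone or without Csl4 replicate 2. Against Rrp40 alone, 3 were higher and 3 lower at an unadjusted p under 0.05 in limma. Of all 7222 genes, 1085 were higher and 890 lower at that level. The machinery of RNA interference, which dsRNA engages, had no call in limma among 14 genes (median -0.066). At an unadjusted p under 0.05 in limma, 1 was higher and 2 were lower, whereas of all 7222 genes 1613 were higher and 1415 lower.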
